A study of Mus musculus with 8 samples.

Results

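Replication-dependent histone genes encode the linker histone H1 and the core histones H2A, H2B, H3 and H4 that package newly made DNA. Protein-coding genes were taken as members when their symbol was H1f1 to H1f5 or began with H2ac, H2bc, H3c or H4c followed by a digit. That rule used no measured value, but earlier results of these data were known when the members were chosen. The annotation held 67 such genes and the count table listed 66 of them among 22430 genes, with H2bc26 not analysed here. By class the listed members were 5 H1, 18 H2A, 18 H2B, 12 H3 and 13 H4 genes. RNA came from brains of male C57Bl/6JRj mice, 4 young adults of 6 months (6m) and 4 aged adults of 24 months (24m), 1 library per animal, with no treatment or genetic change stated. The labels call the tissue whole brain, and the extraction text calls it brain hemisphere. Polyadenylated RNA was selected and made into directional libraries, and the library totals were 63460940 to 103462414 counts. Whether histone mRNA differed between the ages was the question asked of each class and each member.

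Most of these genes lie in clusters and have no introns, and their transcripts are made mainly in S phase, when replicating DNA needs new nucleosomes. Their mRNAs normally end in a conserved stem-loop in place of a poly(A) tail. The stem-loop is bound by SLBP, the pre-mRNA is cleaved with the help of the U7 snRNP, and the mRNA is degraded when replication ends. Neurons do not divide, and in mature brain dividing cells are few, mainly glial precursors and neuroblasts. Some of these genes also give polyadenylated transcripts that extend past the stem-loop. The libraries were poly(A)-selected, so the share of the cells' histone mRNA that they hold is unknown.

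The 3′ stem-loop is shown for the members on which the results turn, because it is the processing signal that the genes share and it was not used to choose them. The letters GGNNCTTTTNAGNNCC were searched on the mRNA strand in the 150 bases after the stop codon of all 21770 annotated coding genes (GRCm39). They were found in 59 of the 66 listed members and in 65 (0.299%) of all coding genes. In the lines below capitals mark the stem-loop and lower case the 5 bases on each side, 5′ to 3′. H2ac18 (chr3:96153343-96153368, + strand) and H2bc4 (chr13:23868625-23868650, + strand) are abundant members that were lower at 24m. H4c8 (chr13:23715623-23715648, + strand) and H3c14 (chr3:96154638-96154663, + strand) led their classes, as did the linker histone gene H1f2 (chr13:23923490-23923515, + strand). H2bc12 (chr13:22220465-22220490, + strand) carries another base in the loop, and H2bc18 (chr3:96177482-96177507, + strand) was higher at 24m.
H2ac18: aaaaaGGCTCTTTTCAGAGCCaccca
H2bc4: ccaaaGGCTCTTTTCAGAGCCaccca
H4c8: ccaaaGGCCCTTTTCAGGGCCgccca
H3c14: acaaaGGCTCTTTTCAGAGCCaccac
H1f2: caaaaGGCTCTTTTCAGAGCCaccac
H2bc12: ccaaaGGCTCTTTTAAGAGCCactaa
H2bc18: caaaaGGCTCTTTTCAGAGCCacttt
The first base of the stem-loop lay 22 to 59 bases after the stop codon. The form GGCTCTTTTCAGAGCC was present in 38 members, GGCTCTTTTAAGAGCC in 8 and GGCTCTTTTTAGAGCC in 1, all of them H1, H2A, H2B or H3 genes. H4 genes carried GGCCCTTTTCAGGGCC in 8 cases, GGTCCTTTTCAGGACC in 2 and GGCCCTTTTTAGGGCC in 2. H2bc18, 1 of the 2 members called higher at 24m, thus had the commonest form. The other, H2bc21, was among the 7 members without these letters in the window, with H2ac22, H2bc22, H2bc23, H2bc24, H3c8 and H4c1, and its exons held no match either. The letters AATAAA, a polyadenylation signal, stood in that window in 2 members and in 14.7% of all coding genes.

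The histone mRNA captured by poly(A) selection was lower in the aged brain. Summed over all 66 members, the level was 686, 609, 657 and 811 CPM at 6m and 476, 347, 350 and 315 CPM at 24m in replicates 1 to 4. Levels are counts per 1e+06 (CPM) scaled by trimmed mean of M values (TMM) factors. Every 24m library was below every 6m library, with means of 691 ± 86.3 CPM at 6m and 372 ± 70.9 CPM at 24m (SD, n = 4 per age), a ratio of 0.538. The members held 0.0357% to 0.072% of all counts in a library. In this and every other level given here, fewer cells with these transcripts and less of them per cell cannot be told apart. The RNA came from whole tissue. A changed polyadenylated share of histone mRNA cannot be told apart from these either, since the libraries were poly(A)-selected.

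All 4 core histone classes were lower at 24m, and H1 was not separated between the ages. H2A, summed over its 18 genes, stood at 336, 287, 308 and 378 CPM at 6m and 220, 143, 138 and 117 CPM at 24m, a ratio of 0.471 between the means. H2B, summed over its 18 genes, stood at 262, 248, 262 and 317 CPM at 6m and 187, 150, 161 and 147 CPM at 24m, a ratio of 0.592. H3, summed over its 12 genes, stood at 30.2, 26, 32.3 and 45.6 CPM at 6m and 18.3, 19.7, 17 and 17.8 CPM at 24m, a ratio of 0.543. The libraries of the ages did not overlap in any of these classes. H4, summed over its 13 genes, stood at 29.1, 20.4, 23.9 and 27.7 CPM at 6m and 15.9, 9.9, 10.3 and 9.14 CPM at 24m, a ratio of 0.448, again without overlap. H1, summed over its 5 genes, stood at 28.7, 27.9, 30.9 and 43 CPM at 6m and 34.3, 24.8, 24.6 and 24.4 CPM at 24m, a ratio of 0.828, and 24m replicate 1 lay within the 6m range. In H2A, H2B and H4, 24m replicate 1 also stood above the other aged libraries. Without that library the ratios were 0.488 for all members, 0.404 for H2A, 0.561 for H2B, 0.542 for H3, 0.386 for H4 and 0.754 for H1. These sums carry no test and no correction for gene length, and differences between the classes were not tested.

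**Figure D1:**
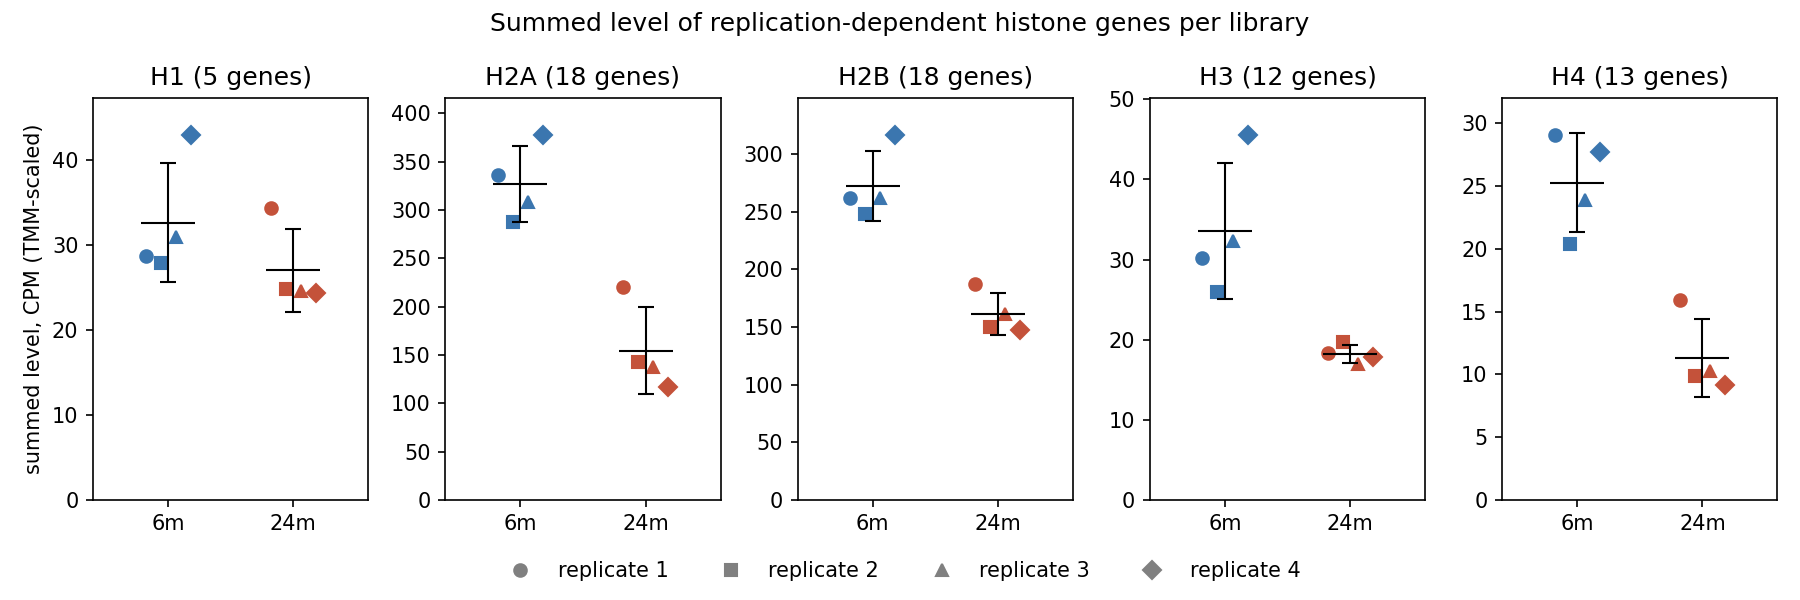
Summed level of each histone class (TMM-scaled CPM, linear axis from 0) in the 4 libraries of 6m (blue) and of 24m (red), with a symbol per replicate number and the mean ± SD in black. All 24m libraries lie below all 6m libraries for H2A, H2B, H3 and H4, while for H1 24m replicate 1 (34.3 CPM) lies within the 6m range of 27.9 to 43.0 CPM.

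Single genes were tested with the quasi-likelihood test of edgeR over the 16730 genes that had more than 5 counts in 4 or more libraries. Calls required an adjusted p (Benjamini-Hochberg, over all tested genes) of 0.05 or less, together with a log2 fold change (log2FC, 24m minus 6m) that was 0.58 or more in size. Of the 66 members 60 were tested and the other 6, H1f1, H2ac1, H2bc14, H3c1, H3c3 and H3c8, had at most 13 counts in any library. Of the 60, 44 were called lower at 24m, where 18.3% of all tested genes were called lower. A further 2 members were called higher, H2bc18 and H2bc21, where 25.3% of all tested genes were called higher, and 14 were not called. The median log2FC of the 60 members was -0.94, with a range of -1.67 to 0.95, and that of all tested genes was -0.00337. The log2FC was below 0 in 57 of the 60. The 24m libraries lay entirely below the 6m libraries in 41 tested members, against 26.8% of all tested genes, and entirely above them in 3, against 28.4%.

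By class, 14 of 17 tested H2A genes, 13 of 17 H2B genes, 8 of 9 H3 genes and 9 of 13 H4 genes were called lower. None of the 4 tested H1 genes was called by edgeR, DESeq2 or limma-voom, and 1 had an unadjusted p under 0.05. No H2A, H3 or H4 gene was called higher by any of the 3 tools or had an unadjusted p under 0.05 with a positive log2FC. The median log2FC was -1.27 for H2A, -0.82 for H2B, -1.01 for H3, -1.01 for H4 and -0.40 for H1. The count of members called lower depended on how gene length was handled. Members are short, with a median exonic length of 579 bases against 5768 over the tested genes, and with the trend of each library over length removed, 21 members were called lower and 3 higher, beside 20.5% and 19.4% of all tested genes. Without 24m replicate 1, 46 members were called lower and 2 higher, where 21.9% and 27.8% of all tested genes were called. Leaving out each library in turn gave 39 to 46 called lower, and 36 of the 44 kept their call in all 8 cases. By library totals alone the median log2FC of all genes was 0.214 and that of the members -0.74, with 36 members called lower and 3 higher, where 10.4% and 32.6% of tested genes were called.

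**Figure D2:**
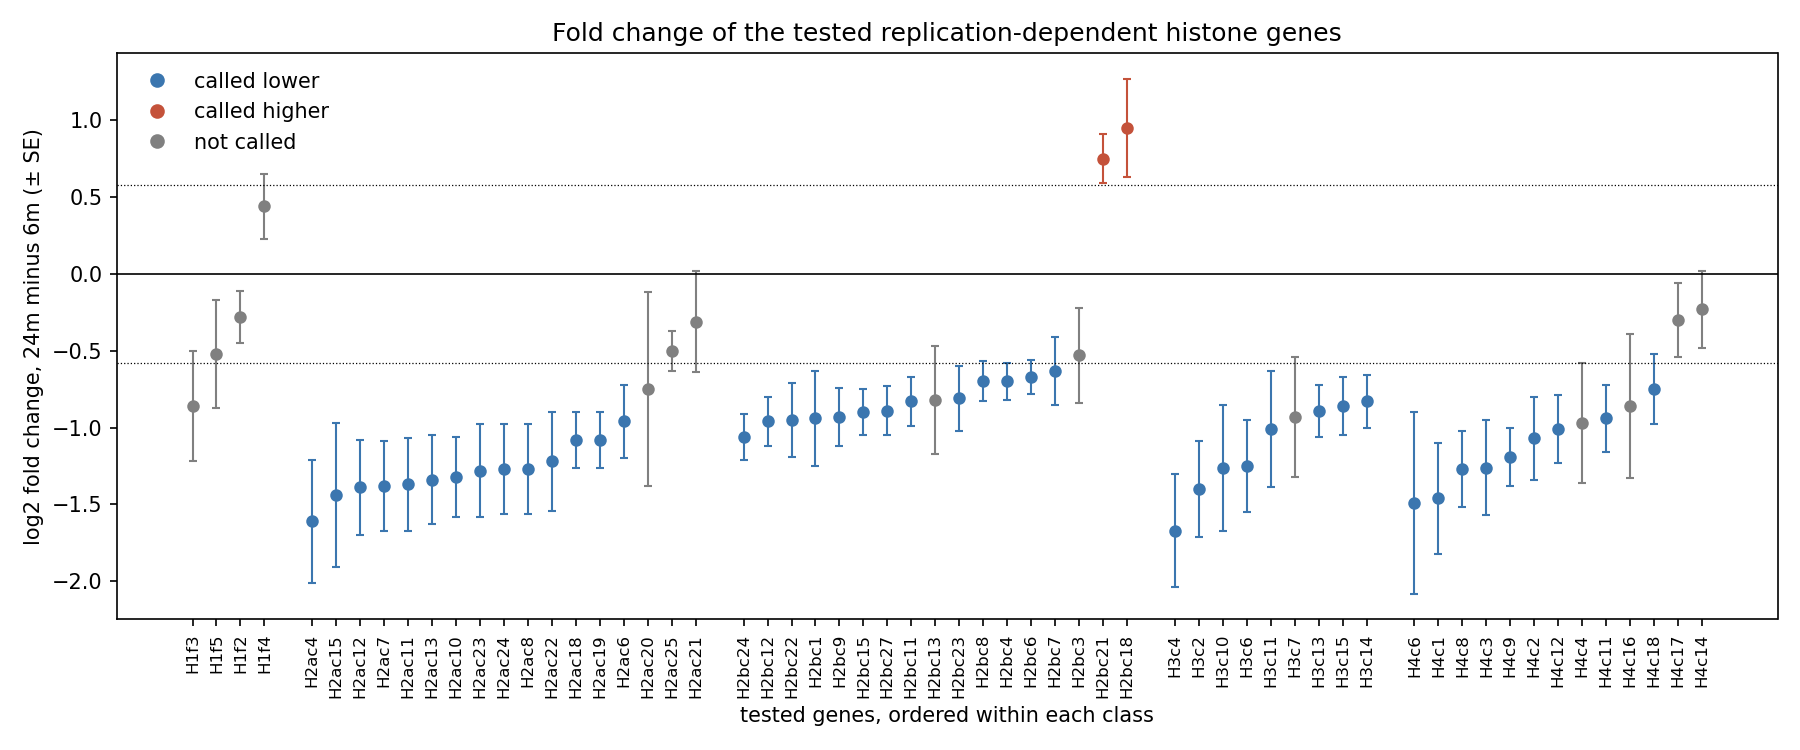
Log2FC (24m minus 6m, ± SE) of each of the 60 tested members, ordered within class, with called genes in blue (lower) or red (higher), other genes in grey and dotted lines at the fold threshold of 0.58 either way. Values run from -1.67 for H3c4 to 0.95 for H2bc18, and the 2 called higher are both H2B genes.

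Markers of several cell types differed between the ages in the same libraries. All 4 erythroid markers, haemoglobin genes and Alas2, were called lower. Their summed level was 4000 to 5630 CPM at 6m and 900 to 3070 CPM at 24m without overlap, and 24m replicate 1 was the highest of the aged libraries, as in the sums of all members and of each class other than H3. Among the young libraries 6m replicate 4 had the lowest erythroid sum and the highest sum of all members. Of the 4 neuron markers 1 was called lower and 1 higher, and their sum was lower at 24m without overlap (1640 to 1810 and 1330 to 1550 CPM). The sums were higher without overlap for markers of oligodendrocyte precursors (79.5 to 97.3 and 138 to 158 CPM, 2 of 4 called higher), astrocytes (237 to 264 and 357 to 482 CPM, 3 of 4) and microglia (118 to 126 and 151 to 178 CPM, 2 of 4). Neuroblast markers overlapped in their sums (19.1 to 31.2 and 20.1 to 31.1 CPM, 2 of 4 called higher), and so did those of oligodendrocytes, endothelial cells and neutrophils. The lymphocyte and plasma cell markers overlapped as well (0.368 to 0.579 and 0.287 to 11.6 CPM), and the highest value came from 24m replicate 1, the library that stood apart in the histone sums. There Jchain stood at 4.21 CPM and Mzb1 at 6.14 CPM, against 0.0688 to 0.324 CPM and 0.0688 to 0.132 CPM in the other aged libraries, and Jchain was called higher (adjusted p = 0.0381). No marker was at 0 in all libraries. The part of these markers in the histone values was not tested.

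The near copies H2ac18 and H2ac19 were the most abundant H2A genes. With both counted, H2A had the highest class sum at 6m, whereas at 24m its mean of 154 CPM was under the 161 CPM of H2B, which was the higher of these classes in 3 of 4 aged libraries. H2ac18 had 93.8, 79.8, 83.3 and 105 CPM at 6m and 59.7, 39.2, 39.6 and 32.2 CPM at 24m. H2ac19 was measured at 94, 79.8, 84.7 and 105 CPM at 6m and 59.7, 40.5, 39.9 and 32.3 CPM at 24m. The aged libraries were below the young ones in both, with a log2FC (± SE) of -1.08 ± 0.18 for H2ac18 (adjusted p = 0.000738) and -1.08 ± 0.18 for H2ac19 (adjusted p = 0.000713). H2ac18 took 27.6 ± 0.396% of H2A counts at 6m and 27.7 ± 0.738% at 24m (SD, n = 4). The pair encodes the same protein from the same coding sequence, and the count of H2ac19 differed from that of H2ac18 by -0.0177% to 3.26% of the pair's mean over the 8 libraries. All 100-base stretches of H2ac19 also occur in another member, so the reads of the pair cannot be assigned to 1 gene with certainty. With H2ac19 left out, a setting added after the data were seen, the H2A sum was 237 ± 28.6 CPM at 6m and 111 ± 33.8 CPM at 24m, a ratio of 0.47, and it was under the H2B mean at both ages. Once the length trend was removed neither H2ac18 (log2FC -0.49, adjusted p = 0.00234) nor H2ac19 (-0.53, adjusted p = 0.00177) reached the fold threshold, and both lost their calls.

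Other abundant H2A genes lie on chromosome 13. H2ac24 stood at 39.6, 32.3, 36 and 45.4 CPM at 6m and 27.8, 14, 11.6 and 10.1 CPM at 24m. H2ac23 had 24.2, 20.2, 21.6 and 27.1 CPM at 6m and 17.1, 8.05, 6.93 and 6.21 CPM at 24m. H2ac11 was measured at 22.3, 18.1, 19.9 and 23.5 CPM at 6m and 14.5, 6.66, 6.24 and 5.01 CPM at 24m. In these 3 genes every aged library was below every young one and 24m replicate 1 was the highest of the aged. The log2FC was -1.27 ± 0.29 for H2ac24 (adjusted p = 0.00401), -1.28 ± 0.30 for H2ac23 (adjusted p = 0.00424) and -1.37 ± 0.30 for H2ac11 (adjusted p = 0.00319). H2ac12 stood at 14.7, 11.5, 13.1 and 14.8 CPM at 6m and 9.36, 4.09, 4.06 and 3.08 CPM at 24m. This gene had a log2FC of -1.39 ± 0.31 (adjusted p = 0.00348). Reads of H2ac11, H2ac12, H2ac23 and H2ac24 are also uncertain, since 76.2% to 92.7% of their 100-base stretches occur in another member.

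An abundant H2A gene that was not called was H2ac25 on chromosome 11, whose exons share no 100-base stretch with another member. H2ac25 had 25.9, 27.1, 30 and 36.6 CPM at 6m and 18.2, 21.4, 22.8 and 22.3 CPM at 24m. Its libraries did not overlap, but the log2FC of -0.50 ± 0.13 missed the fold threshold (adjusted p = 0.00675). It was called lower with the GC trend removed (log2FC -0.76, adjusted p = 0.00078), and stood at -0.07 (adjusted p = 0.718) with the length trend removed. Its share of the H2A sum was 9.14 ± 0.971% at 6m and 14.7 ± 4.63% at 24m, with overlap. The annotation of Trim17, an E3 ubiquitin ligase gene, overlaps H2ac25 on the same strand, so reads there cannot be told apart with certainty.

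The remaining H2A genes above 1 CPM were lower as well. H2ac22 was measured at 4.19, 3.21, 3.85 and 5.7 CPM at 6m and 3.16, 1.22, 1.61 and 1.24 CPM at 24m. H2ac6 stood at 3.49, 2.91, 3.2 and 3.83 CPM at 6m and 2.66, 1.52, 1.57 and 1.13 CPM at 24m. H2ac8 had 2.79, 2.7, 2.54 and 2.84 CPM at 6m and 1.94, 0.936, 0.925 and 0.665 CPM at 24m. Their libraries did not overlap, and 24m replicate 1 was the highest of the aged in each. H2ac7 was measured at 2.58, 2.32, 2.09 and 2.57 CPM at 6m and 1.53, 0.874, 0.564 and 0.665 CPM at 24m. H2ac13 stood at 2.94, 2.32, 2.72 and 3.22 CPM at 6m and 1.83, 1.07, 0.756 and 0.734 CPM at 24m. H2ac15 had 2.85, 1.87, 1.89 and 0.908 CPM at 6m and 1.25, 0.836, 0.312 and 0.344 CPM at 24m. In H2ac7 and H2ac13 the ages were apart, whereas in H2ac15 the lowest 6m library was below the highest 24m library. All 6 were called, with log2FC of -1.22 (H2ac22), -0.96 (H2ac6), -1.27 (H2ac8), -1.38 (H2ac7), -1.34 (H2ac13) and -1.44 (H2ac15) and adjusted p of 0.00245 to 0.0231. The call of H2ac15 was lost without 6m replicate 1 or 24m replicate 3, with adjusted p up to 0.0758, and with the GC trend removed (log2FC -0.90, adjusted p = 0.0927). Below 1 CPM, H2ac4 (-1.61, adjusted p = 0.00607) and H2ac10 (-1.32, adjusted p = 0.00174) were called lower, and H2ac20 and H2ac21 were not called. H2ac20 stood at 1.52 CPM in 24m replicate 2 and at 0.149 to 0.454 CPM in the other aged libraries, and was called lower without that library.

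**Figure D3:**
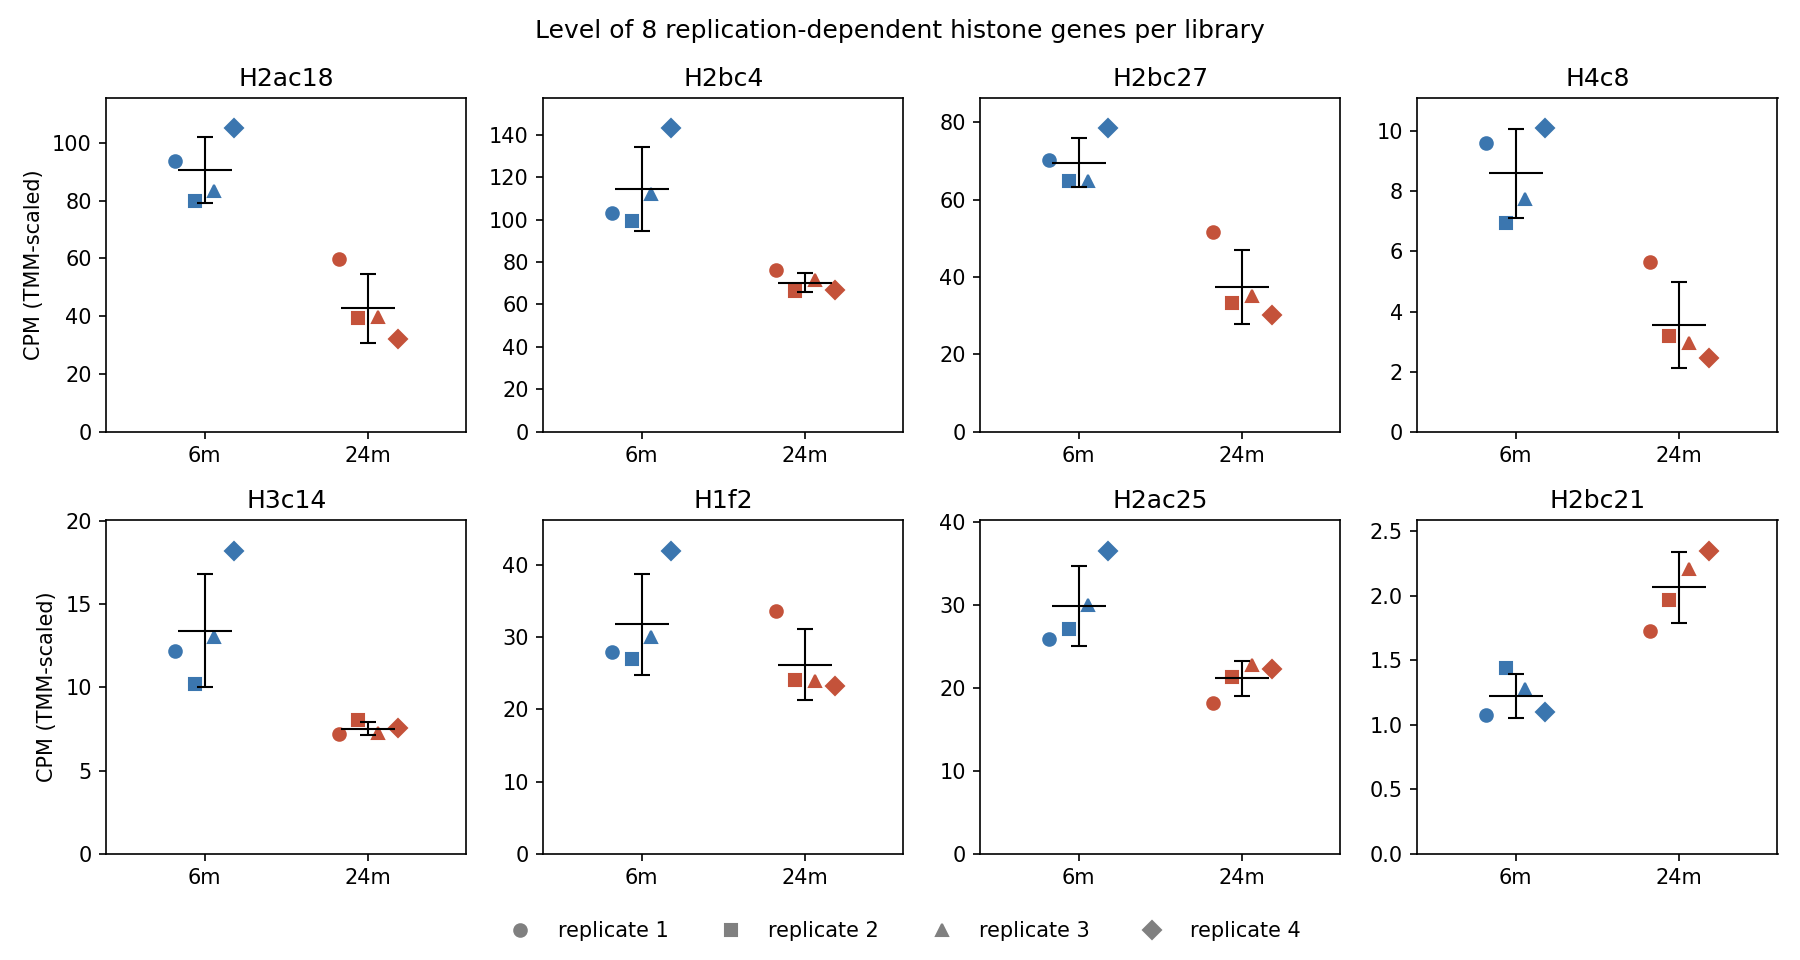
Level of 8 members (TMM-scaled CPM, linear axis from 0) in each library of 6m (blue) and 24m (red), with a symbol per replicate number and the mean ± SD in black. The ages do not overlap in H2ac18, H2bc4, H2bc27, H4c8, H3c14 and H2ac25, overlap in H1f2, and are reversed in order in H2bc21.

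H2B was led by 3 genes. H2bc4 was measured at 103, 99.3, 112 and 143 CPM at 6m and 76.1, 66.3, 71.5 and 67 CPM at 24m. H2bc27 stood at 70.2, 64.8, 64.8 and 78.4 CPM at 6m and 51.5, 33.2, 35 and 30.2 CPM at 24m. H2bc8 had 39.1, 41.1, 44.5 and 56.7 CPM at 6m and 30.5, 25.7, 29.1 and 26.7 CPM at 24m. Every aged library was below every young one in each of them. The log2FC was -0.70 ± 0.12 for H2bc4 (adjusted p = 0.000859), -0.89 ± 0.16 for H2bc27 (adjusted p = 0.00117) and -0.70 ± 0.13 for H2bc8 (adjusted p = 0.00115). Together they hold most of the H2B sum, with 41.7%, 25.6% and 16.6% of it at 6m and 43.7%, 23.0% and 17.4% at 24m. H2bc27, the neighbour of H2ac25 on chromosome 11, shares no 100-base stretch with another member. Without 6m replicate 4, the highest library, H2bc4 and H2bc8 came just under the fold threshold and lost their calls (adjusted p up to 0.00426 and 0.00538 over the libraries left out). With the length trend removed none of the 3 was called, at log2FC of -0.50 (H2bc4), -0.21 (H2bc27) and -0.04 (H2bc8), and adjusted p stayed at or under 0.05 only for H2bc4. By library totals alone H2bc4 and H2bc8 were both at -0.48 and not called.

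A second group of H2B genes lay at intermediate levels. H2bc6 was measured at 8.55, 7.65, 8.44 and 8.53 CPM at 6m and 5.62, 5.19, 5.52 and 4.56 CPM at 24m. H2bc12 stood at 11.4, 9.53, 8.19 and 6.93 CPM at 6m and 5.44, 4.41, 4.35 and 4.39 CPM at 24m. H2bc15 had 9.1, 7.31, 6.72 and 5.76 CPM at 6m and 4.22, 3.96, 3.78 and 3.57 CPM at 24m. All 3 were lower without overlap, and in H2bc12 24m replicate 1 stood apart from the other aged libraries. Their log2FC were -0.67 ± 0.11 (H2bc6, adjusted p = 0.000724), -0.96 ± 0.16 (H2bc12, adjusted p = 0.000917) and -0.90 ± 0.15 (H2bc15, adjusted p = 0.000785). The annotation of H2bc6 overlaps that of H1f4 on the same strand. H2bc24 was measured at 6.13, 4.84, 4.61 and 4.12 CPM at 6m and 2.68, 2.37, 2.09 and 2.26 CPM at 24m. H2bc23 stood at 2.9, 2.43, 2.59 and 2.3 CPM at 6m and 1.99, 1.27, 1.55 and 0.997 CPM at 24m. Both fell, with log2FC of -1.06 ± 0.15 for H2bc24 (adjusted p = 0.000363) and -0.81 ± 0.21 for H2bc23 (adjusted p = 0.00743). All 100-base stretches of H2bc23 and 90.5% of those of H2bc24 occur in another member, and neither has the stem-loop letters. Removing the length trend ended the calls of H2bc12 (log2FC -0.44), H2bc15 (-0.52) and H2bc23 (-0.39, adjusted p = 0.0577), and by library totals alone H2bc6 came under the fold threshold (-0.45).

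The other H2B genes above 1 CPM that were lower were H2bc9, H2bc11, H2bc22 and H2bc7. H2bc9 had 2.74, 2.23, 2.37 and 3.62 CPM at 6m and 1.61, 1.31, 1.64 and 1.18 CPM at 24m. H2bc11 was measured at 2.24, 1.91, 2.55 and 2.5 CPM at 6m and 1.5, 1.2, 1.12 and 1.34 CPM at 24m. The ages were apart in both. H2bc22 stood at 2.1, 1.84, 1.33 and 1.21 CPM at 6m and 1.03, 0.636, 0.708 and 0.974 CPM at 24m. H2bc7 had 1.87, 1.97, 1.56 and 1.56 CPM at 6m and 1.44, 1.09, 1.26 and 0.711 CPM at 24m. Again the ages did not overlap, though by a small margin in H2bc7. The 4 genes had log2FC of -0.93, -0.83, -0.95 and -0.63 in that order, with adjusted p of 0.00153 to 0.0297. H2bc7 lost its call when replicate 1 or 2 of 6m, or 2 or 4 of 24m, was left out (adjusted p up to 0.0757). None of the 4 was called with the length trend removed, at log2FC of -0.38, -0.34, -0.24 and -0.15 and adjusted p of 0.0699 to 0.501. H2bc7 was not called with the GC trend removed (-0.48) or by library totals alone (-0.42) either. H2bc1, the testis H2B gene, was called lower at under 1 CPM (log2FC -0.94, adjusted p = 0.0227), with overlap between the ages and without its call when 6m replicate 1 or 3 or 24m replicate 3 or 4 was left out. Its call was also lost with the length trend removed and by library totals alone. H2bc3 and H2bc13 were not called. H2bc3 was called lower without 24m replicate 2, and H2bc13 without 24m replicate 1 (log2FC -1.06, adjusted p = 0.0172).

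Both members called higher at 24m are H2B genes on chromosome 3, and their exons share no 100-base stretch with another member. H2bc21 was measured at 1.08, 1.44, 1.28 and 1.1 CPM at 6m and 1.73, 1.97, 2.21 and 2.35 CPM at 24m. Every aged library was above every young one, with a log2FC of 0.75 ± 0.16 (adjusted p = 0.00313). H2bc21 encodes H2BE, an H2B variant known from olfactory sensory neurons, and its annotated transcript runs 2192 bases past the stop codon. Its share of the H2B sum was 0.458 ± 0.1% at 6m and 1.3 ± 0.28% at 24m. H2bc18 stood at 0.244, 0.156, 0.0995 and 0.182 CPM at 6m and 0.27, 0.287, 0.288 and 0.481 CPM at 24m. Here too the ages were apart, and 24m replicate 4 stood above the other aged libraries. The annotation of Gm42743 overlaps H2bc18 on the same strand and that of Gm20628 on the other. The log2FC of H2bc18 was 0.95 ± 0.32 (adjusted p = 0.0261), and the call was lost when replicate 2 or 3 of 6m, or 4 of 24m, was left out (adjusted p up to 0.0756). Removal of the GC trend brought H2bc21 to a log2FC of 0.48, under the fold threshold.

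The H3 genes give only 2 proteins from 12 members, each of 136 residues. H3c14 had 12.2, 10.2, 13 and 18.2 CPM at 6m and 7.18, 8.06, 7.25 and 7.57 CPM at 24m. H3c15 was measured at 8.9, 8.36, 10.1 and 15.4 CPM at 6m and 6.03, 6.19, 5.74 and 5.65 CPM at 24m. H3c13 stood at 7.3, 5.64, 7.13 and 9.8 CPM at 6m and 4.11, 4.48, 3.47 and 4.01 CPM at 24m. These 3 genes on chromosome 3 held 39.9%, 31.7% and 22.4% of the H3 sum at 6m and 41.3%, 32.5% and 22.0% at 24m. In each of them 6m replicate 4 was the highest library and all aged libraries were below all young ones. The log2FC was -0.83 ± 0.17 for H3c14 (adjusted p = 0.00205), -0.86 ± 0.19 for H3c15 (adjusted p = 0.00319) and -0.89 ± 0.17 for H3c13 (adjusted p = 0.00159). H3c14 and H3c15 have the same coding sequence, and the count of H3c15 differed from that of H3c14 by -31.2% to -16.4% of the pair's mean over the libraries. With the length trend removed none of the 3 was called, at log2FC of -0.31 (H3c14), -0.10 (H3c15) and -0.36 (H3c13). With the GC trend removed H3c13 lost its call as well, at a log2FC of -0.30 (adjusted p = 0.109).

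The H3 genes of chromosome 13 were all under 1 CPM. H3c4 had the lowest log2FC of all members, -1.67 ± 0.37 (adjusted p = 0.00343), followed in this class by H3c2 (-1.40, adjusted p = 0.00366), H3c10 (-1.26, adjusted p = 0.0223) and H3c6 (-1.25, adjusted p = 0.00481). H3c4 stood at 0.594 to 0.772 CPM at 6m and 0.103 to 0.337 CPM at 24m. H3c11 was called lower (-1.01, adjusted p = 0.0394) with overlap between the ages, and lost the call when any library other than 6m replicate 1 or 24m replicate 1 was left out. Leaving out 6m replicate 1 or 24m replicate 3 or 4 ended the call of H3c10. Removing the length trend ended the calls of H3c6 (log2FC -0.51, adjusted p = 0.208), H3c10 (-0.89, adjusted p = 0.0559) and H3c11 (-0.63, adjusted p = 0.141). Removing the GC trend ended those of H3c10 (-0.73, adjusted p = 0.106) and H3c11 (-0.49, adjusted p = 0.244). H3c11 was not called by DESeq2, by library totals alone, with no filter on low counts or with the replicate number as a block either. H3c7 was not called, and was called lower without 6m replicate 4 and with the GC trend removed (-1.13, adjusted p = 0.0295).

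H4 is the most uniform class, as all 13 members encode 1 protein of 103 residues from 12 distinct coding sequences. H4c8 had 9.6, 6.96, 7.75 and 10.1 CPM at 6m and 5.65, 3.18, 2.95 and 2.45 CPM at 24m. H4c9 was measured at 5.32, 4.02, 4.99 and 7.82 CPM at 6m and 2.59, 2.43, 2.32 and 2.37 CPM at 24m. The ages were apart in both, and 24m replicate 1 was the highest aged library. The log2FC was -1.27 ± 0.25 for H4c8 (adjusted p = 0.002) and -1.19 ± 0.19 for H4c9 (adjusted p = 0.000683). H4c8 took 34.0 ± 1.77% of the H4 sum at 6m and 30.8 ± 3.79% at 24m, and H4c9 21.8 ± 4.42% and 22.3 ± 4.32%. H4c12 stood at 3.05, 1.85, 2.59 and 2.15 CPM at 6m and 1.55, 0.886, 1.28 and 1.03 CPM at 24m. H4c1 had 3.08, 1.41, 2.26 and 1.3 CPM at 6m and 1.16, 0.487, 0.744 and 0.504 CPM at 24m. Neither gene showed overlap, and 6m replicate 1 was the highest young library of both. H4c3 was measured at 2.91, 1.67, 2.16 and 1.15 CPM at 6m and 1.12, 0.587, 0.937 and 0.63 CPM at 24m. H4c2 stood at 1.68, 1.61, 1.46 and 2.25 CPM at 6m and 1.34, 0.699, 0.648 and 0.619 CPM at 24m. In H4c3 the margin between the ages was narrow, and in H4c2 24m replicate 1 stood apart from the other aged libraries. All 4 were called, with log2FC of -1.01 (H4c12), -1.46 (H4c1), -1.26 (H4c3) and -1.07 (H4c2) and adjusted p of 0.00319 to 0.00707. Removal of the length trend ended the calls of H4c9 (log2FC -0.47, adjusted p = 0.0586) and H4c3 (-0.55, adjusted p = 0.0907). With the GC trend removed H4c12 came under the fold threshold (-0.54) and lost its call.

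Among H4 genes under 1 CPM, H4c11 (-0.94, adjusted p = 0.00469), H4c18 (-0.75, adjusted p = 0.0163) and H4c6 (-1.49, adjusted p = 0.0483) were called lower. H4c6 overlapped between the ages and lost its call when any library other than 6m replicate 2 or 24m replicate 1 was left out. Removing the length trend ended all 3 calls, at log2FC of -0.25 for H4c11 (adjusted p = 0.231), -0.32 for H4c18 (adjusted p = 0.174) and -1.15 for H4c6 (adjusted p = 0.0926). By library totals alone H4c18 (-0.55) and H4c6 (adjusted p = 0.0766) were not called, and H4c6 was not called by limma-voom, with the GC trend removed (adjusted p = 0.0525) or with no filter on low counts either. H4c4, H4c14, H4c16 and H4c17 were not called. Of these H4c17 and H4c14, picked after their values were seen, were higher in share at 24m, which was not tested. The share of H4c17 in the H4 sum was 2.06 ± 0.473% at 6m and 3.70 ± 0.416% at 24m, and that of H4c14 was 0.782 ± 0.104% and 1.52 ± 0.433%. In both the aged libraries lay above the young ones in share, while the levels had log2FC of -0.30 and -0.23.

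No gene of the linker histone class was called, and 1 gene, H1f2, held most of its sum. H1f2 had 28, 27, 30.1 and 42 CPM at 6m and 33.6, 24.1, 23.9 and 23.3 CPM at 24m. The gene made up 97.3 ± 0.563% of the H1 sum at 6m and 97.0 ± 0.974% at 24m, and its log2FC was -0.28 ± 0.17 (adjusted p = 0.182). Its 24m replicate 1 lay within the 6m range and the other aged libraries were below all young ones. Without 24m replicate 1 its adjusted p was 0.02, at a log2FC of -0.41, under the fold threshold, so that it was not called. With the length trend removed its log2FC was 0.30 (adjusted p = 0.0585). The other H1 genes are given after their values were seen. H1f4 stood at 0.325 to 0.431 CPM at 6m and 0.444 to 0.665 CPM at 24m, without overlap, and its log2FC of 0.44 ± 0.21 was not called (adjusted p = 0.097). With the length trend removed, or with scaling by library totals alone, H1f4 was called higher. H1f3 (log2FC -0.86, adjusted p = 0.0626) and H1f5 (log2FC -0.52, adjusted p = 0.212) were not called. H1f3 was called lower with the length trend removed (-1.18, adjusted p = 0.0129), with the GC trend removed (-1.24, adjusted p = 0.0121) and without 6m replicate 1 or 24m replicate 4.

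By position, 53 listed members lie on chromosome 13, 10 on chromosome 3, 2 on chromosome 11 and 1 on chromosome 6. On chromosome 13 (21899933 to 24118834, GRCm39) 38 of 47 tested members were called lower and none higher, beside 18.3% and 25.3% of all tested genes, with a median log2FC of -1.01. No member there was called higher by DESeq2 or limma-voom or had an unadjusted p under 0.05 with a positive log2FC, but H1f4 was called higher with the length trend removed and by library totals alone. On chromosome 3 (96127181 to 96177448) 5 of 10 were called lower and 2 higher, beside the same shares, with a median log2FC of -0.79. H2bc27 was called lower and H2ac25 was not on chromosome 11, and H4c16, alone on chromosome 6, was not called. The summed level went from 376 to 207 CPM for chromosome 13, from 216 to 107 CPM for chromosome 3 and from 99.4 to 58.6 CPM for chromosome 11, without overlap in each. With the length trend removed all 21 members called lower were on chromosome 13.

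Per length the leading genes were in another order. Per kb of exonic sequence, H2ac19 stood at 172 CPM at 6m and 81.6 CPM at 24m and H2ac18 at 154 and 72.8 CPM per kb. They were followed at 6m by H2bc27 with 93.6, H2ac24 with 79.5 and H2bc8 with 73.4 CPM per kb, while H2bc4, the member with the highest CPM, stood at 37.0 CPM per kb. At 24m the order of those 3 was H2bc27 with 50.4, H2bc8 with 45.3 and H2ac24 with 32.9 CPM per kb. H1f2 stood at 20.4 CPM per kb at 6m, above the leading H4 gene H4c8 (18.3) and H3 gene H3c13 (15.3), and at 24m these stood at 16.8 for H1f2, 7.58 for H4c8 and 8.23 CPM per kb for H3c13. Exonic length is the union of all annotated exons, which places genes with a long annotated 3′ end lower.

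Members with a short annotated 3′ end and members with an extended one were both lower. In 42 members the longest annotated end lay within 200 bases of the stop codon, a limit set after the annotation was seen, and 30 of the 36 tested were called lower and 1 higher, with a median log2FC of -1.08, beside 18.3% and 25.3% of all tested genes. The other 24 members, all tested, had 14 called lower and 1 higher and a median of -0.86. The summed level went from 387 to 184 CPM in the first group, a ratio of 0.474, and from 304 to 188 CPM in the other, a ratio of 0.62, without overlap in either. The difference between the groups was not tested.

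Paralogs share sequence, which limits values of single genes. Class sums are affected too if reads were counted for more than 1 gene, and the handling of multimapping reads was not stated. In the median member 32.5% of 100-base stretches of exonic sequence also occurred in another member. The share was over 50% in 24 of the 66 and 0 in 10. Of those 10, 8 were tested. H2bc27 was the 1 called lower, H2bc18 and H2bc21 were called higher, and the other 5, H1f5, H2ac25, H4c4, H4c14 and H4c16, were not called. Of the 52 tested members with some shared sequence 43 were called lower and none higher. Over all tested genes 18.3% were called lower and 25.3% higher, to which the counts of 1 and 2 among the 8 are close. These counts moved with the processing. With the GC trend removed H2ac25 and H4c4 were also called lower and H2bc21 was not called, so that 3 of the 8 were lower and 1 higher, against 38 and 0 of the 52 and 22.6% and 21.4% of all tested genes. H4c4 was also called lower without 24m replicate 1 or 6m replicate 3. Removal of the length trend gave 0 lower and 2 higher of the 8 and 21 and 1 of the 52, where 20.5% and 19.4% of all tested genes were called. The difference between these sets was not tested. The 18 H2A members encode 9 distinct proteins and the 18 H2B members 12. Another annotated gene overlapped 17 members on the same strand and 38 on the other, and the counting was not stated to use strand.

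**Figure D4:**
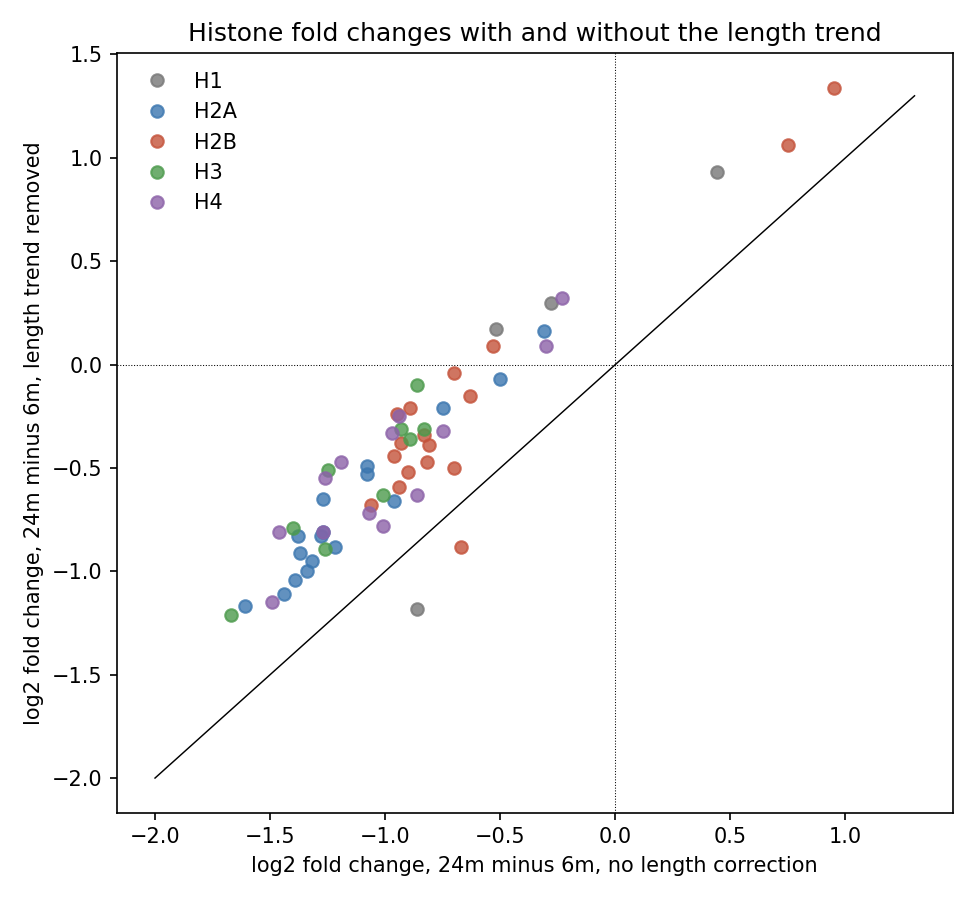
Log2FC (24m minus 6m) of the 60 tested members without length correction (horizontal axis) and with the trend of each library over gene length removed (vertical axis), coloured by class, with the line of equal values. The median moved from -0.94 to -0.51, and 20 members were called lower both ways.

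Removing the length trend left H2A as the class with most calls. H2A had 12 genes called lower, with a median log2FC of -0.83, but its most abundant genes H2ac18 and H2ac19 were not among them, and H4 had 4 called lower. H2B had 2 called lower and 2 called higher, H3 had 2 called lower, and H1 had H1f3 called lower and H1f4 called higher. Over all tested genes 20.5% were called lower and 19.4% higher in this fit, so the lower calls of H2B (2 of 17) and H3 (2 of 9) were under or near the background share. Of the 44 members called lower without the correction, 20 were also called lower with it, and H2bc18 and H2bc21 were called higher both ways. Over all tested genes the correction moved the median log2FC to -0.0923. Removing the trend over GC content (median 58.1% in members and 49.3% in the tested genes) gave 41 members called lower and 1 higher, where 22.6% and 21.4% of tested genes were called, at a median of -0.84.

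Promoters of the members were searched for 3 motifs known from histone genes, in RefSeq promoters that span 250 bases before to 50 after the start (GRCm38.p6), where 57 members matched. Both strands were searched. TATAAA, the TATA box, stood in 59.6% of member promoters and in 14.2% of all 27025 promoters. CCAAT, the letters of the CCAAT box, stood in 86.0% and in 37.9%. All matched H1, H2A, H2B and H3 promoters held CCAAT and 27.3% of the H4 promoters did. The octamer ATTTGCAT, known as an element of H2B promoters, was in 42.9% of H2B and 35.3% of H2A promoters, in none of the H1, H3 and H4 promoters and in 1.75% of all. A match is a run of letters and not a measured binding site.

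The replacement histones, most of which are made outside S phase from polyadenylated mRNA, had 4 of 11 tested genes called lower and none higher, with a median log2FC of -0.40, where 18.3% and 25.3% of all tested genes were called lower and higher. Their summed level was 1290 to 1410 CPM at 6m and 906 to 1110 CPM at 24m, without overlap. An unadjusted p under 0.05 was found for 9 genes with a negative log2FC and for 1 gene with a positive log2FC. DESeq2 and limma-voom called none higher, and 1 was called higher by library totals alone, with the length trend removed and without 6m replicate 4. H2aj (-1.19 ± 0.19, adjusted p = 0.000654) and H2az2 (-0.92 ± 0.16, adjusted p = 0.000909), both H2A variants, had the lowest values. H1f0, the linker histone of non-dividing cells, went from 63.2 ± 5.42 to 91.3 ± 6.35 CPM (SD, n = 4) without overlap, at a log2FC of 0.53 ± 0.09 (adjusted p = 0.000787) under the fold threshold. Macroh2a2 was not called (-0.20 ± 0.11). The other genes called lower were H1f10, a linker histone (-0.85 ± 0.16), and Cenpa, the centromeric H3 (-0.81 ± 0.21), named after their values were seen.

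Factors of histone mRNA processing and turnover were mixed. Among 20 tested genes, 6 rose and 2 fell, beside 25.3% and 18.3% of all tested genes, and the median log2FC was -0.10. With the length trend removed 2 rose and 6 fell, beside 19.4% and 20.5% of all tested genes. The counts were 3 and 2 with the GC trend removed, beside 21.4% and 22.6%. By library totals alone they were 7 and 0, beside 32.6% and 10.4%. Tent4a, a non-canonical poly(A) polymerase, rose by a log2FC of 1.05 ± 0.12 (adjusted p = 0.000121). Lsm11, a U7 snRNP protein, rose by 0.96 ± 0.14 (adjusted p = 0.000379). Lsm10, its partner in the U7 snRNP, had a log2FC of -0.73 ± 0.15 (adjusted p = 0.00217), and Nelfe, a subunit of the negative elongation factor, -0.74 ± 0.15 (adjusted p = 0.00242). Slbp, named after its value was seen, stood at 18 ± 1.06 CPM at 6m and 17.1 ± 1.61 CPM at 24m and was not called (log2FC -0.08 ± 0.10, adjusted p = 0.505).

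Histone chaperones, which carry histones to and from DNA, had 3 of 24 tested genes called higher and 1 lower, with a median log2FC of 0.05, beside 25.3% and 18.3% of all tested genes. With the length trend removed 5 were called higher and 4 lower, beside 19.4% and 20.5% of all tested genes. The counts were 1 and 2 with the GC trend removed, beside 21.4% and 22.6%. By library totals alone they were 5 and 0, beside 32.6% and 10.4%. Without 6m replicate 4 or 24m replicate 4, 2 were called higher, and without 6m replicate 2 or 24m replicate 1, 4 were. Spty2d1 (1.61 ± 0.29, adjusted p = 0.0012), an H3-H4 chaperone, and Anp32e (0.77 ± 0.18, adjusted p = 0.00441), an H2A.Z chaperone, rose. Nasp, which holds the reserve of soluble H3 and H4, fell by 0.69 on the log2 scale (adjusted p = 0.000781). Chaf1a, a subunit of the replication-coupled chaperone CAF-1, had a log2FC of -0.30 ± 0.09 under the fold threshold.

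Genes of S phase and mitosis ranged widely in level, from Pcna, the replication clamp, at 36.3 CPM at 6m to mitotic genes under 1 CPM. Of 29 tested genes 3 were called lower and none higher, with a median log2FC of -0.17, beside 18.3% and 25.3% of all tested genes, and 2 had an unadjusted p under 0.05 with a positive log2FC, while DESeq2 and limma-voom called none higher. Lower and higher calls were 6 and 0 with the length trend removed, beside 20.5% and 19.4% of all tested genes. They were 5 and 1 with the GC trend removed, beside 22.6% and 21.4%. By library totals alone they were 2 and 2, beside 10.4% and 32.6%, and without 24m replicate 1 5 and 0, beside 21.9% and 27.8%. Without 24m replicate 4 they were 2 and 1, and 2 were called lower without 6m replicate 2 or 3 or 24m replicate 2 or 3. With at least 1 CPM required none was called. The summed level was 203 to 210 CPM at 6m and 187 to 204 CPM at 24m, with overlap. The genes called lower, named after their values were seen, were the mitotic genes Ccnb2 (-1.04 ± 0.29), Birc5 (-0.85 ± 0.24) and Cdk1 (-0.69 ± 0.23), each under 1 CPM on average. Mcm2 (0.43 ± 0.12) and Mcm3 (0.27 ± 0.13), subunits of the replicative helicase, and Gins2 (-0.54 ± 0.21) and Ccne2 (-0.48 ± 0.17), which act in replication start, were not called.

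**Figure D5:**
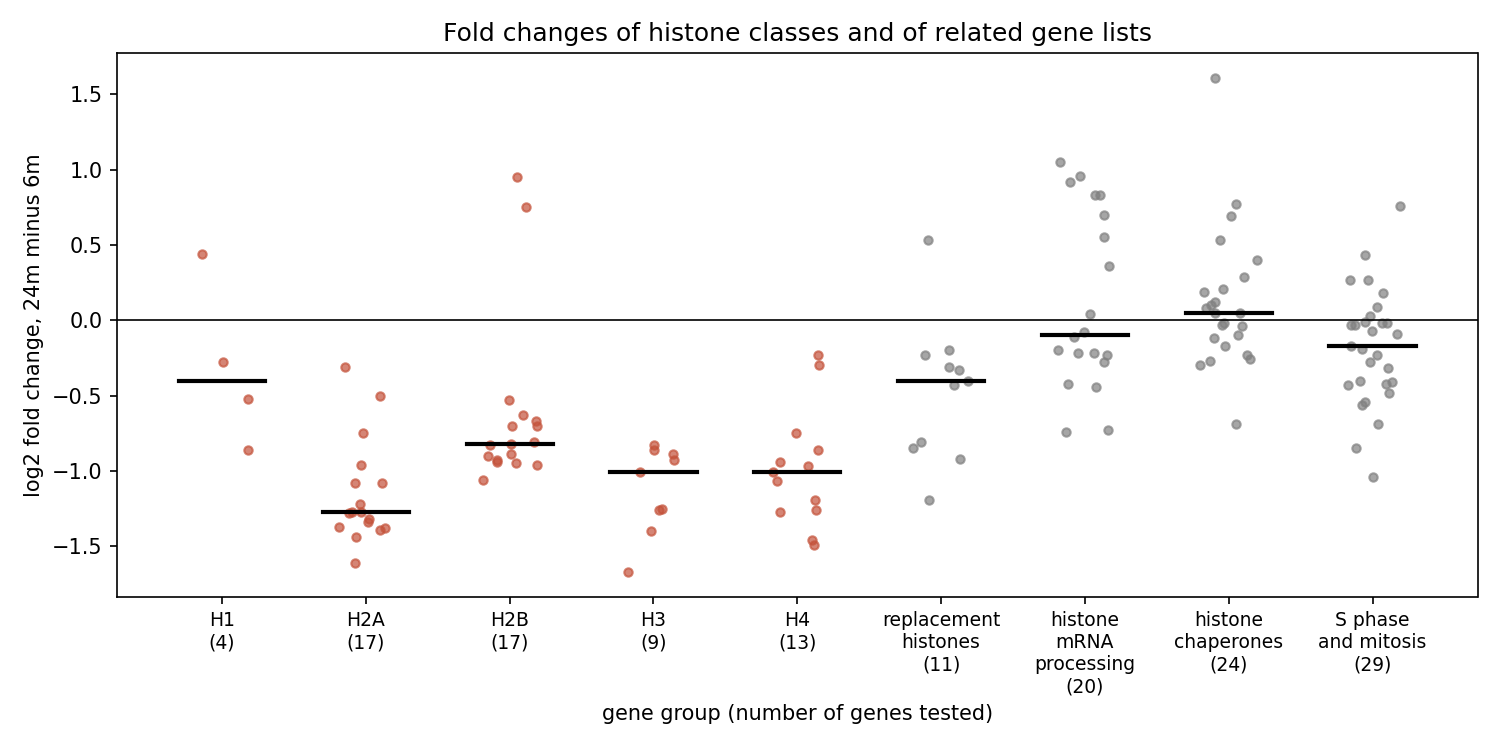
Log2FC (24m minus 6m) of tested genes in each histone class (red) and in 4 related gene lists (grey), with the number tested in brackets and the median as a black bar. The medians of the core histone classes are -1.27 to -0.82, those of the H1 genes and replacement histones -0.40, and those of the other lists -0.17 to 0.05.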

How the data were processed

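The authors trimmed paired-end Illumina reads with Trim Galore 0.4.11, aligned them with HISAT2 2.1.0 to GRCm39 and assigned them to genes with featureCounts. The deposited table holds raw counts per gene and library, with no normalization and no pooling. Strand use and the handling of multimapping reads were not stated in the sources used here. The members and gene lists were chosen with earlier results of these data known. Ages were compared in R 4.3.3 with edgeR 4.0.16 (quasi-likelihood test, TMM factors, age as the only term, Benjamini-Hochberg adjustment over 16730 genes), with the thresholds of the study. CPM are counts per 1e+06 of the TMM-scaled total. Positions, lengths and sequences came from GENCODE M39 on GRCm39, which matched 22281 of the 22430 genes. The 149 others held 0.312% of counts. Every called member and every member with a mean of at least 1 CPM was named, and in each other list the 2 highest and 2 lowest log2FC at that level. Alternatives were DESeq2 1.42.0, limma 3.58.1 (voom), other scalings and filters, each library left out, a replicate block, and offsets that remove length or GC trends (mgcv 1.9.3). The fit was tested on simulated data. The smallest difference between replicate libraries exceeded sampling noise, so each counted as a replicate. P-values measure the spread between 4 animals per age.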

Additional observations from a re-analysis of the deposited data

Results flagged for a closer look

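Within groups of 4 libraries, 9 of the 108 groups of single-gene levels and class sums had a library far from the others by Dixon's test of the gap over the range, where chance gives about 1 in 20. In 7 of the 9 the library was 24m replicate 1. H1f2 stood at 33.6 CPM there and at 23.3 to 24.1 CPM in the other aged libraries. H2ac12 stood at 9.36 CPM there against 3.08 to 4.09 CPM, and H2ac23 at 17.1 against 6.21 to 8.05 CPM. The same library gave 5.44 CPM for H2bc12 (others 4.35 to 4.41 CPM) and 1.34 CPM for H4c2 (others 0.619 to 0.699 CPM). Its class sums were 34.3 CPM for H1 (others 24.4 to 24.8 CPM) and 15.9 CPM for H4 (others 9.14 to 10.3 CPM). H2bc18 was high in 24m replicate 4, with 0.481 CPM against 0.27 to 0.288 CPM. H2bc6 was low in 6m replicate 2, with 7.65 CPM against 8.44 to 8.55 CPM. Levels of members within a library are not independent, since paralogs share reads.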

How the results depend on the processing

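The members' median log2FC stayed below 0 under all settings tried. With each library left out, 39 to 46 members were called lower and 1 to 2 higher. The largest shifts came with the length trend removed, alone or with the replicate number as a block: 21 and 20 members were called lower, at medians of -0.51 and -0.52, and with the block H1f2 turned to a log2FC of 0.32 (adjusted p = 0.0444). The cause was not tested. Only 1 member was called higher with at least 1 CPM required in 4 libraries, which leaves fewer genes tested, and with the GC trend removed. Over all genes, 1746 were called lower by library totals alone and 4999 without a fold threshold, against 3058. The log2 ratio of the H2B sums was -0.54 by library totals alone against -0.76, and -0.84 to -0.68 with each library left out. Other scalings, DESeq2 and limma-voom gave 44 or 45 members called lower and 2 higher. The block alone gave 46 and 2. Replicate numbers did not pair the libraries, since deviations of same-numbered libraries correlated at 0.271, 0.143, 0.0778 and -0.348 and 6m replicate 2 correlated best with 24m replicate 4. Leaving H2ac19 out, a setting added after the data were seen, gave a ratio of 0.548 for all members. Depth limits the 6 untested members and the 12 called under 1 CPM.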
